A study of Mus musculus with 32 samples.

Results

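The genes described are 9 peptidases and transporters linked to the last steps of protein digestion. These are the brush border peptidases Mep1a, Mep1b, Anpep, Enpep, Dpp4 and Ace and the transporters Slc15a1, Slc6a19 and Slc15a2, the last best known from kidney and brain. They were taken by name and without a filter on signal, but were chosen with earlier results of these data known. Every probe set that the platform annotation assigns to 1 of these genes alone was used. This gave 9 of 18195 genes and 17 of 35067 probe sets, from 6 peptidases and 3 transporters. The expression of these genes was measured in mice with disrupted genes for intestinal fatty acid-binding proteins, Fabp2, the intestinal form, and Fabp6, the ileal bile acid-binding form.

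Dietary protein reaches the enterocyte as peptides, and the enzymes anchored in its apical brush border cut these into di- and tripeptides and free amino acids. PepT1 (Slc15a1) carries the small peptides into the cell together with protons, while B0AT1 (Slc6a19) carries neutral amino acids together with sodium. The meprins cut within the chain, aminopeptidases N (Anpep) and A (Enpep) take residues from the N-terminus, dipeptidyl peptidase 4 (Dpp4) takes dipeptides that end in proline or alanine, and angiotensin-converting enzyme (Ace) takes dipeptides from the C-terminus.

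The whole small intestine of 10-week-old mice, from the stomach to the cecum, was profiled in females and males of the Fabp2-/-, Fabp6-/- and Fabp2-/-;Fabp6-/- genotypes and of WT C57BL/6J mice, all on the same strain background, kept on a standard diet and fasted before sampling. The disruptions are present in every cell of the body, and the Fabp2-/-;Fabp6-/- line was bred from both other lines. There were 8 groups with 2 RNA pools in each, a pool combining 2 mice, and all 16 pools were run on a pair of Affymetrix chips, 430A and 430B. The values are log2 signals of robust multichip average (RMA), normalized for each chip on its own, so that a level was compared only between pools for the same probe set.

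Median signals were 6.57 to 6.62 for the 430A arrays and 5.89 to 5.92 for those of 430B. In the 8 pools without an intact Fabp2 gene its signal was 8.98 to 9.98, against 12.58 to 13.05 in the others. Fabp6 was at 4.80 to 5.04 in 7 of the 8 pools without an intact Fabp6 gene, but at 9.21 in the library labelled Fabp6-/- female replicate 2, against 10.50 to 11.32 in the pools with an intact Fabp6 gene. Over 100 probe sets present on both chips, WT female replicate 2 and Fabp2-/- female replicate 1 did not match best with themselves (r = 0.203 and 0.462), and the member results with an FDR under 0.2, and the calls of other listed genes, that rest on these 3 libraries are also given without them where their call ended or their value moved. Of 10 enterocyte markers on 430A none had a mean log2 signal under 6 over the pools, while 4 of 5 markers of kidney tubule did, and 2 of 5 markers of the ileum, Fgf15 and Slc10a2. These are whole-organ RNA samples, so fewer cells of a type and less RNA per cell cannot be told apart.

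Group means were estimated in limma from all 16 arrays of a chip, with the most variable probe set (by interquartile range) of each gene kept on each chip. A gene was called at the study's thresholds, a false discovery rate (FDR, the Benjamini-Hochberg adjusted p) under 0.2 with a log2 fold change beyond 0.5 in either direction, and fold changes are given with the standard error (SE) of limma and n = 2 pools a group. Between gene-disrupted and WT pools of the same sex, 2 of 54 pairs of a member and a comparison were called, while 0.823% of all such pairs over 18195 genes were. These were Mep1a in Fabp2-/-;Fabp6-/- males and Slc15a2 in Fabp6-/- males, while none of the 9 members was called in Fabp2-/- females (0.786% of all genes), Fabp2-/- males (0.687%), Fabp6-/- females (0.451%) or Fabp2-/-;Fabp6-/- females (0.929%). At an FDR under 0.2 alone, a rule added after the data were seen, 6 of the 54 pairs passed, against 3.37% of all pairs. These were Dpp4 and Slc6a19 in Fabp2-/- females (4.47% of all genes), Slc15a2 in Fabp6-/- males (1.72%), Mep1a in Fabp2-/-;Fabp6-/- females (4.18%) and Mep1a and Anpep in Fabp2-/-;Fabp6-/- males (6.66%). Of the 54 pairs, 11 had an unadjusted p under 0.05, against 12.4%. The 9 members did not move as a block, and their median log2 fold change lay between −0.14 in Fabp6-/- males and 0.02 in Fabp2-/-;Fabp6-/- females, beside medians over all genes of −0.01 and 0.01.

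**Figure D1:**
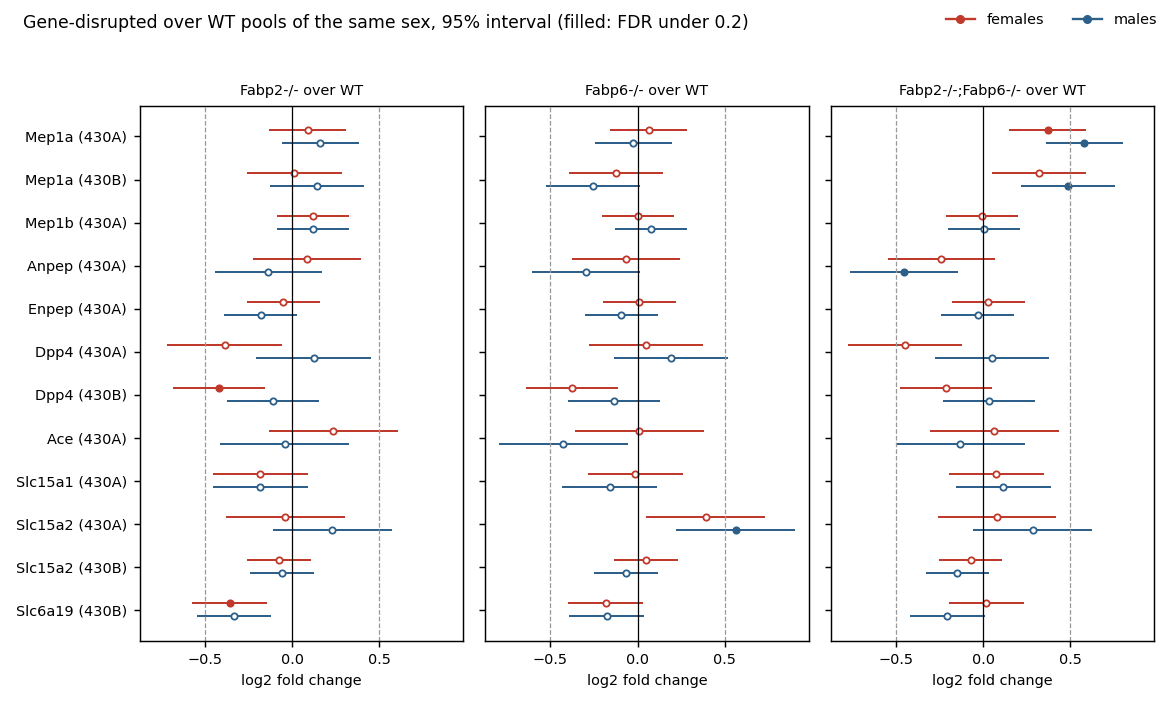
Log2 fold changes (x axis) of the 9 member genes in Fabp2-/-, Fabp6-/- and Fabp2-/-;Fabp6-/- pools over WT pools of the same sex, with the 95% interval of limma (females red, males blue, n = 2 pools a group, filled at an FDR under 0.2, dashed lines at the limit of 0.5). Mep1a lies above 0 in both sexes and on both chips in Fabp2-/-;Fabp6-/- mice, Slc15a2 on 430A above 0 in Fabp6-/- mice, and Slc6a19 below 0 in Fabp2-/- mice.

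Mep1a, the α subunit of the metalloendopeptidase meprin, was highest in mice that lack both Fabp genes. On 430A its log2 signal was 11.14 and 11.10 in Fabp2-/-;Fabp6-/- females and 11.02 and 11.00 in Fabp2-/-;Fabp6-/- males, against 10.70 and 10.80 in WT females and 10.36 and 10.50 in WT males. All 4 Fabp2-/-;Fabp6-/- pools lay above all other 12 pools of the series on this chip. It was 10.80 and 10.88 in Fabp2-/- females, 10.48 and 10.70 in Fabp2-/- males, 10.81 and 10.82 in Fabp6-/- females and 10.28 and 10.53 in Fabp6-/- males, so that these pools overlapped with the WT pools of their sex except in Fabp6-/- females, which lay just above both WT female pools. Mep1a was called higher in Fabp2-/-;Fabp6-/- males, exceeding WT males by 0.58 on the log2 scale (SE 0.10, adjusted p = 0.00453), where 1 of 9 members and 1.6% of all genes were called. In females the change was 0.37 (SE 0.10, adjusted p = 0.128), under the limit of 0.5, and 0.42 with an adjusted p of 0.228 without both pools that did not match between the chips.

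The probe set of Mep1a on 430B, a type of set whose probes may match several transcripts, was also highest in this genotype. Its signal was 10.50 and 10.51 in Fabp2-/-;Fabp6-/- females and 10.40 and 10.29 in Fabp2-/-;Fabp6-/- males, against 10.01 and 10.35 in WT females and 9.86 and 9.85 in WT males. The pools did not overlap in either sex, but Fabp2-/- female replicate 2, at 10.33, and WT female replicate 2, at 10.35, lay above the lowest Fabp2-/-;Fabp6-/- pool. The log2 fold change was 0.49 in males (SE 0.13, adjusted p = 0.073) and 0.32 in females (SE 0.13, adjusted p = 0.29), and the male value had adjusted p-values of 0.205 to 0.343 without any 1 of the 4 pools behind it. Averaged over the sexes, Fabp2-/-;Fabp6-/- over WT pools differed by 0.47 on 430A (adjusted p = 0.000869) and by 0.40 on 430B (adjusted p = 0.016, n = 4 pools a genotype), both under the limit. Without both pools that did not match between the chips, the 430A value was 0.501 (adjusted p = 0.00397), just past the limit and so a call, and the 430B value was 0.49 (adjusted p = 0.00616). The call in males on 430A held in all 28 alternatives, between 0.51 and 0.65, of which 16 each left out 1 pool. Only 4 of these 16 removed a pool of the groups compared, and the others could change the adjusted p alone. The series matrix values were identical to those used, so that alternative could not differ. Mep1a has 1 probe set on 430A, so another choice of set could not change its fold change.

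Losing both genes was also set against losing either, averaged over the sexes, a comparison added after the data were seen. Mep1a in Fabp2-/-;Fabp6-/- pools exceeded Fabp6-/- pools by 0.46 on 430A (SE 0.07, adjusted p = 0.00108) and by 0.60 on 430B (SE 0.09, adjusted p = 0.000543), which on 430B was a call. Without the library labelled Fabp6-/- female replicate 2 these values were 0.46 and 0.59. Over Fabp2-/- pools the difference was 0.35 (adjusted p = 0.00865) and 0.33 (adjusted p = 0.0827), and without both pools that did not match between the chips 0.33 (adjusted p = 0.0454) and 0.26 (adjusted p = 0.22). The 430B value was 0.21 without Fabp2-/- male replicate 1 (adjusted p = 0.402). The 430B difference from Fabp6-/- pools was the 1 call among 18 pairs of a member and a comparison, against 1.11% of all pairs, while 0.984% and 1.24% of genes were called over Fabp2-/- and over Fabp6-/- pools. An FDR under 0.2 was reached by 7 of the 18 pairs, against 12.5% of all pairs, namely Mep1a, Anpep, Slc15a1 and Slc6a19 over Fabp2-/- (9.56% of genes) and Mep1a, Dpp4 and Slc15a2 over Fabp6-/- pools (15.4%), the same 7 that had an unadjusted p under 0.05, against 18.3%. Over WT pools, the Fabp2-/- genotype differed in Mep1a by 0.13 on 430A and 0.08 on 430B and the Fabp6-/- genotype by 0.02 and −0.19, none with an FDR under 0.2.

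**Figure D2:**
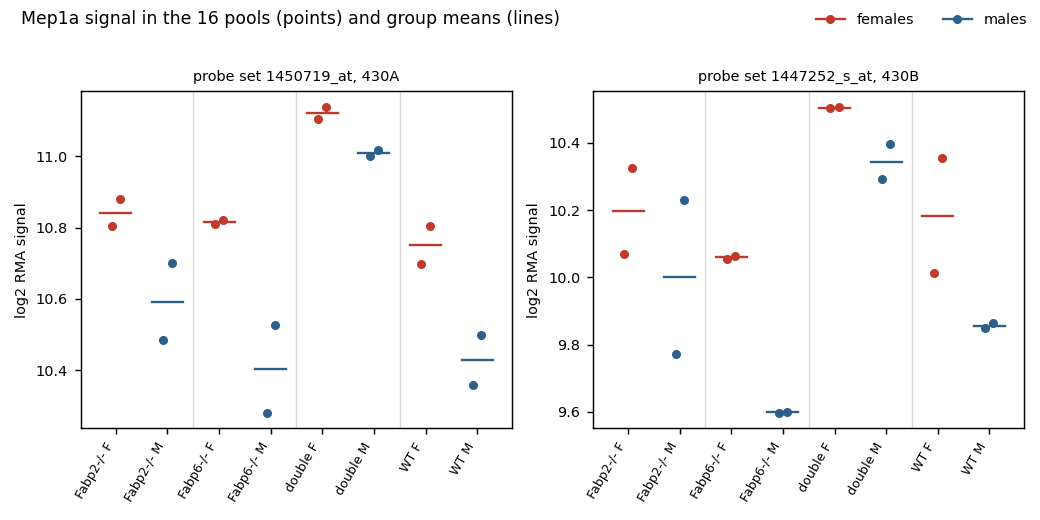
Log2 RMA signal of Mep1a (y axis) in each of the 16 pools, by group along the x axis (points, females red, males blue) with group means (lines) on 430A (left) and 430B (right). The Fabp2-/-;Fabp6-/- pools lie at 11.00 to 11.14 on 430A, above the 12 other pools, and females lie above males of the same genotype on 430A in all 4 genotypes.

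Other RNAs differed between the same pools. In Fabp2-/-;Fabp6-/- males against WT males the summed linear signal of 5 ileal markers was 3960 to 4410 against 3170 to 3180, that of 10 enterocyte markers 41800 to 44700 against 39000 to 41000 and that of 6 T cell markers 1300 to 1350 against 2400 to 2460. Of 11 enterocyte markers measured, Apob was the 1 called, higher by 0.66 (adjusted p = 0.00121). At an FDR under 0.2 alone, 4 of the 11 were higher and 0 lower, with a median log2 fold change of 0.15. Of the 6 T cell markers, 4 were called lower (median −0.60), while 1.6% of all genes were called in this comparison. Of 6 ileal markers measured, Cubn, the cobalamin receptor, was the 1 called, higher by 0.96 in Fabp2-/-;Fabp6-/- males (adjusted p = 0.00701). At an FDR under 0.2 alone, 2 of the 6 were higher and 1 was lower, and the median log2 fold change of the 6 was 0.04. Fgf15 and Slc10a2 stayed under a mean signal of 6. Hepatocyte markers summed to 375 to 623 against 248 to 259, with 3 of 5 under a signal of 6. Markers of stomach epithelium, 7 of them on 430A, summed to 7470 to 12600 against 2690 to 6820. Against 1.6% of all genes called, 5 of 8 measured were called higher, among them the gastrokine Gkn1 (1.72, adjusted p = 0.0966) and the gastric mucin Muc5ac (0.83, adjusted p = 0.123). The difference of the 3′ from the 5′ probe sets of β-actin, a sign of RNA integrity, was −0.08 in both Fabp2-/-;Fabp6-/- male pools against −0.205 and −0.191 in WT males on 430A, and 0.197 and 0.198 against 0.0588 and 0.104 on 430B, while that of Gapdh was −0.07 and −0.05 against −0.14 and −0.10 on 430A and −0.246 and −0.284 against −0.256 and −0.233 on 430B, where the pools did not separate. The part of these in the Mep1a result was not tested.

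The promoter of Mep1a is shown because the call of its gene held in every alternative tried. It lies on the minus strand at chr17:43502724-43503023 of GRCm38.p6 (RefSeq), with 250 bases before the first transcribed base and 50 from it on.
Mep1a promoter: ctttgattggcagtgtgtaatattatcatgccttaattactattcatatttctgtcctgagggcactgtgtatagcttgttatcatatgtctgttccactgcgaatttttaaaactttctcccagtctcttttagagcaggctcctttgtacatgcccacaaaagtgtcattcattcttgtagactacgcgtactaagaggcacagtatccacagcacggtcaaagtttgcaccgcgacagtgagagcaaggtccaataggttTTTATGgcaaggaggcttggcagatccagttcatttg
Capitals mark TTTATG, a motif of the intestinal factor CDX2, which begins 13 bases after the first transcribed base. Of 5 motifs searched on both strands, the HNF1 half-site GTTAAT, the HNF4 site CAAAGTCCA, the GATA motif AGATAA, the CDX2 motif TTTATG and the TATA box motif TATAAA, this was the only match in the Mep1a window. It stands in 11.9% of 32851 promoters of that length and in 1 of the 8 member genes with a promoter in the table, Mep1a. No other motif overlapped it. A match describes these letters and is no measure of binding.

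Mep1b, the β subunit, which pairs with the α subunit and is itself anchored in the membrane, did not move with Mep1a. Its signal lay between 11.92 and 12.23 over the 16 pools and its 8 group means within 0.20. In Fabp2-/-;Fabp6-/- mice the log2 fold change over WT was 0.01 in males and −0.01 in females, with 95% intervals between −0.21 and 0.21. Over the 6 comparisons with WT pools of the same sex it was −0.01 to 0.12, with intervals from −0.21 to 0.32, and its lowest adjusted p was 0.825. These intervals leave out changes of the size seen for Mep1a in Fabp2-/-;Fabp6-/- males.

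Anpep, aminopeptidase N, had its lowest group means in mice lacking both genes. Its signal was 12.20 and 11.99 in Fabp2-/-;Fabp6-/- females and 11.99 and 12.29 in Fabp2-/-;Fabp6-/- males, against 12.09 and 12.58 in WT females and 12.63 and 12.56 in WT males. The pools did not overlap in males but did in females, where WT female replicate 1 lay as low as the Fabp2-/-;Fabp6-/- pools. The log2 fold change was −0.45 in males (SE 0.14, adjusted p = 0.132), −0.24 in females (adjusted p = 0.534) and −0.35 averaged over the sexes (adjusted p = 0.0684), all within the limit of 0.5. Against Fabp2-/- pools, where the signal was 12.39 to 12.53, the average was −0.32 (adjusted p = 0.0858), and against Fabp6-/- pools −0.16 (adjusted p = 0.431). The average over WT depended on WT female replicate 2, and was −0.22 without it (adjusted p = 0.276). Without both pools that did not match between the chips, the average over Fabp2-/- pools was −0.32 (adjusted p = 0.0983). In males the value was −0.60 without Fabp2-/-;Fabp6-/- male replicate 2 (adjusted p = 0.126), past both limits and so a call, but −0.30 without Fabp2-/-;Fabp6-/- male replicate 1 (adjusted p = 0.723), −0.42 without WT male replicate 1 (adjusted p = 0.596) and −0.49 without WT male replicate 2 (adjusted p = 0.24). The sign was opposite to that of Mep1a in the same male pools. In these pools enterocyte markers summed to 41800 to 44700, against 39000 to 41000 in WT males, and their part in the Anpep values was not tested.

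Enpep, aminopeptidase A, was the steadiest member, with a signal of 11.72 to 11.98 in all pools and group means within 0.18. Its log2 fold changes over WT pools of the same sex ran from −0.18 in Fabp2-/- males to 0.03 in Fabp2-/-;Fabp6-/- females, with 95% intervals from −0.38 to 0.23 and no unadjusted p under 0.05. Enpep lies on chromosome 3 like the targeted gene Fabp2, with 24 protein-coding genes between them. In Fabp2-/- pools its signal was 11.79 and 11.77 in females and 11.72 and 11.73 in males, against 11.81 and 11.85 in WT females and 11.84 and 11.98 in WT males, so that all 4 Fabp2-/- pools lay below all 4 WT pools. Averaged over the sexes this was a difference of −0.11 (SE 0.07, adjusted p = 0.665). The Fabp2-/-;Fabp6-/- pools, which also lack Fabp2, overlapped with the WT pools. They read 11.92 and 11.79 in females and 11.83 and 11.93 in males. Ace shares chromosome 11 with Fabp6, 1117 protein-coding genes away, and the other members lie on other chromosomes than the targeted genes.

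Dpp4, which besides its digestive role inactivates the incretins GLP-1 and GIP and is carried by T cells as CD26, had 4 probe sets that did not give 1 picture. Its kept set on 430B is of a type whose probes may also match other sequences. In Fabp2-/- females this set read 8.58 and 8.50 against 8.87 and 9.04 in WT females. That is −0.42 on the log2 scale (SE 0.12, adjusted p = 0.0972), within the limit of 0.5. In males the change was −0.11 (adjusted p = 0.899), and averaged over the sexes it was −0.26 in Fabp2-/- (adjusted p = 0.117) and −0.26 in Fabp6-/- mice (adjusted p = 0.167). Without both pools that did not match between the chips, which were of these female groups, the change in Fabp2-/- females was −0.38 (adjusted p = 0.433) and the averages were −0.24 and −0.21 (adjusted p = 0.333 and 0.332). The average in Fabp6-/- mice was −0.28 when the library labelled Fabp6-/- female replicate 2 was left out (adjusted p = 0.155). Without WT male replicate 2 the averages were −0.15 and −0.14 (adjusted p = 0.423 and 0.502).

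Of the other probe sets of Dpp4, the brightest on 430A was also lower in both pools of Fabp2-/- females (10.60 and 10.59 against 10.98 and 10.92 in WT females). In a fit over all probe sets its log2 fold change was −0.36 (adjusted p = 0.264), and −0.27 averaged over the sexes (adjusted p = 0.103). The set kept on 430A for its spread, whose signal lies near the middle of the chip at percentile 56.2, differed by −0.39 in Fabp2-/- females (adjusted p = 0.507) but by 0.12 in Fabp2-/- males. Between Fabp2-/-;Fabp6-/- and Fabp6-/- pools this set differed by −0.32 averaged over the sexes (adjusted p = 0.105), by −0.39 without the library labelled Fabp6-/- female replicate 2 (adjusted p = 0.0523) and by −0.17 without Fabp2-/-;Fabp6-/- female replicate 2 (adjusted p = 0.453), while the brightest set differed by 0.08. The remaining set on 430B ran the other way, with 0.16 in Fabp2-/- females (adjusted p = 0.637) and 0.20 averaged over the sexes (adjusted p = 0.308). T cell markers summed to 1410 to 1710 in Fabp2-/- females against 2030 to 2190 in WT females. In males, where the change of Dpp4 was smaller, they summed to 1620 to 1860 in Fabp2-/- against 2400 to 2460 in WT pools. The part of T cells in the Dpp4 signal was not tested.

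Ace, for which neither probe set passed an FDR under 0.2, had its lowest level in Fabp6-/- males. The kept set read 10.43 and 10.58 in Fabp6-/- males against 10.94 and 10.91 in WT males, a difference of −0.42 (SE 0.17, unadjusted p = 0.0245, adjusted p = 0.446). The other set read 10.51 and 10.55 against 10.66 and 10.67, a change of −0.14 (adjusted p = 0.812). In Fabp6-/- females the kept set differed from WT by 0.01, by 0.18 without the library labelled Fabp6-/- female replicate 2 (adjusted p = 0.784) and by 0.31 without both pools that did not match between the chips (adjusted p = 0.538), and the pools of a group lay up to 0.60 apart, in WT females.

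Among the transporters, Slc15a2 was the second called member. This gene encodes PepT2, the high-affinity peptide transporter best known from kidney and brain. On 430A its kept set read 6.44 and 6.52 in Fabp6-/- females and 6.78 and 6.48 in Fabp6-/- males, against 6.12 and 6.06 in WT females and 5.80 and 6.33 in WT males. All 4 Fabp6-/- pools lay above all 4 WT pools, but the WT male pools differed by 0.52. The log2 fold change was 0.56 in males (SE 0.16, adjusted p = 0.183), where 1 of 9 members and 0.484% of all genes were called, and 0.39 in females (adjusted p = 0.452). Averaged over the sexes it was 0.48 (SE 0.11, adjusted p = 0.0391), or 0.46 without the library labelled Fabp6-/- female replicate 2 (adjusted p = 0.0587), 0.46 without both pools that did not match between the chips (adjusted p = 0.107) and 0.35 without WT male replicate 1 (adjusted p = 0.211). The call in males ended in 11 of 28 alternatives, 7 of them omissions of 1 pool, and without WT male replicate 1 the change was 0.30 (adjusted p = 1).

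The signal of this set lay at percentile 43 of the chip, and the other sets of Slc15a2 did not follow it. The second set on 430A read 5.91 and 6.10 in Fabp6-/- females and 6.18 and 6.26 in Fabp6-/- males, against 6.10 and 6.08 in WT females and 6.21 and 6.17 in WT males, and the set on 430B differed by −0.07 in Fabp6-/- males (adjusted p = 0.848). In Fabp2-/-;Fabp6-/- mice, which also lack Fabp6, the kept set was higher than WT by 0.18 averaged over the sexes (adjusted p = 0.475) and its difference from Fabp6-/- was −0.29 (SE 0.11, adjusted p = 0.151). Without the library labelled Fabp6-/- female replicate 2, this second difference was −0.27 (adjusted p = 0.223), and without Fabp2-/-;Fabp6-/- female replicate 2 it was −0.18 (adjusted p = 0.535). Markers of kidney tubule summed to 290 to 300 in Fabp6-/- males against 279 to 289 in WT males, with Umod, Slc34a1, Slc12a1 and Slc22a6 under a signal of 6. Markers of stomach epithelium, at the upper end of the sampled tissue, summed to 8810 to 10300 against 2690 to 6820, those of smooth muscle to 3120 to 3270 against 3690 to 4030 and those of T cells to 2650 to 2870 against 2400 to 2460. Of 7 goblet cell markers the mucin Muc2 was the 1 called, higher in Fabp6-/- males (0.55, adjusted p = 0.0197) and females (0.57, adjusted p = 0.0271). The median log2 fold change of the 7 was −0.06 in males and 0.10 in females. On 430A, 6 goblet cell markers summed to 19000 to 19700 in Fabp6-/- males against 18900 to 19400 in WT males. On 430A the 3′ minus 5′ difference of β-actin was −0.131 and −0.18 in Fabp6-/- males against −0.205 and −0.191 in WT males. On 430B it was 0.17 and 0.191 against 0.0588 and 0.104. The part of these markers and of RNA integrity in the Slc15a2 result was not tested.

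The promoter of Slc15a2, shown beside its values as the other called member, lies on the minus strand at chr16:36784913-36785212 of GRCm38.p6 (RefSeq).
Slc15a2 promoter: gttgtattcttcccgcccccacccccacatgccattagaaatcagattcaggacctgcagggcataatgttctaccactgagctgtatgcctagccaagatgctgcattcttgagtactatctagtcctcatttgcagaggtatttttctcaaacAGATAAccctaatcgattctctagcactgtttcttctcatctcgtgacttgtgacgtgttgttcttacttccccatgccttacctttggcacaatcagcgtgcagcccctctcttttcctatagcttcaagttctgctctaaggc
Capitals mark AGATAA, the motif of the GATA factors, which begins 95 bases before the first transcribed base and stands in 11.2% of promoters. It was the only match of the 5 motifs in this window. The promoters of Mep1a and Slc15a2 shared none of the motifs searched.

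Slc15a1, the main intestinal peptide carrier, was never called. Its signal ran from 8.85 to 9.30, and over WT pools of the same sex its log2 fold change lay between −0.18 and 0.12, with 95% intervals from −0.45 to 0.38. It was 9.27 and 9.25 in Fabp2-/-;Fabp6-/- females and 9.16 and 9.29 in Fabp2-/-;Fabp6-/- males, against 9.13 and 8.88 in Fabp2-/- females and 8.85 and 9.01 in Fabp2-/- males. These genotypes did not overlap, and differed by 0.28 averaged over the sexes (SE 0.09, adjusted p = 0.091), or by 0.34 without both pools that did not match between the chips (adjusted p = 0.0893). The difference of Fabp2-/-;Fabp6-/- from WT was 0.09 (adjusted p = 0.677) and that of Fabp2-/- from WT −0.18 (adjusted p = 0.526).

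Slc6a19 was lower in mice lacking Fabp2 alone. On 430B its kept set read 9.66 and 9.69 in Fabp2-/- females and 9.54 and 9.81 in Fabp2-/- males, against 9.96 and 10.11 in WT females and 9.90 and 10.11 in WT males. All 4 Fabp2-/- pools lay below all 4 WT pools. The log2 fold change was −0.36 in females (SE 0.10, adjusted p = 0.0806), −0.33 in males (SE 0.10, adjusted p = 0.223) and −0.34 averaged over the sexes (SE 0.07, adjusted p = 0.0103), all under the limit of 0.5. The average kept an FDR under 0.2 when any 1 pool was left out. In Fabp6-/- mice the average was −0.18 (adjusted p = 0.238) and in Fabp2-/-;Fabp6-/- mice −0.09 (adjusted p = 0.519). Fabp2-/-;Fabp6-/- pools, at 10.09 and 10.01 in females and 9.78 and 9.81 in males, were higher than Fabp2-/- pools by 0.25 (SE 0.07, adjusted p = 0.0914), with an adjusted p of 0.211 without both pools that did not match between the chips.

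The second set of Slc6a19, also bright, showed a smaller difference. It read 11.12 and 11.09 in Fabp2-/- females and 10.99 and 11.25 in Fabp2-/- males, against 11.24 and 11.37 in WT females and 11.22 and 11.31 in WT males, which overlap in males. In the fit over all probe sets it changed by −0.17 averaged over the sexes (adjusted p = 0.22). Without both pools that did not match between the chips the kept set gave −0.30 averaged over the sexes (adjusted p = 0.114) and −0.27 in females (adjusted p = 0.499). Enterocyte markers summed to 39200 to 40900 in Fabp2-/- females and 38000 to 38500 in Fabp2-/- males, against 39600 to 39700 in WT females and 39000 to 41000 in WT males.

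**Figure D3:**
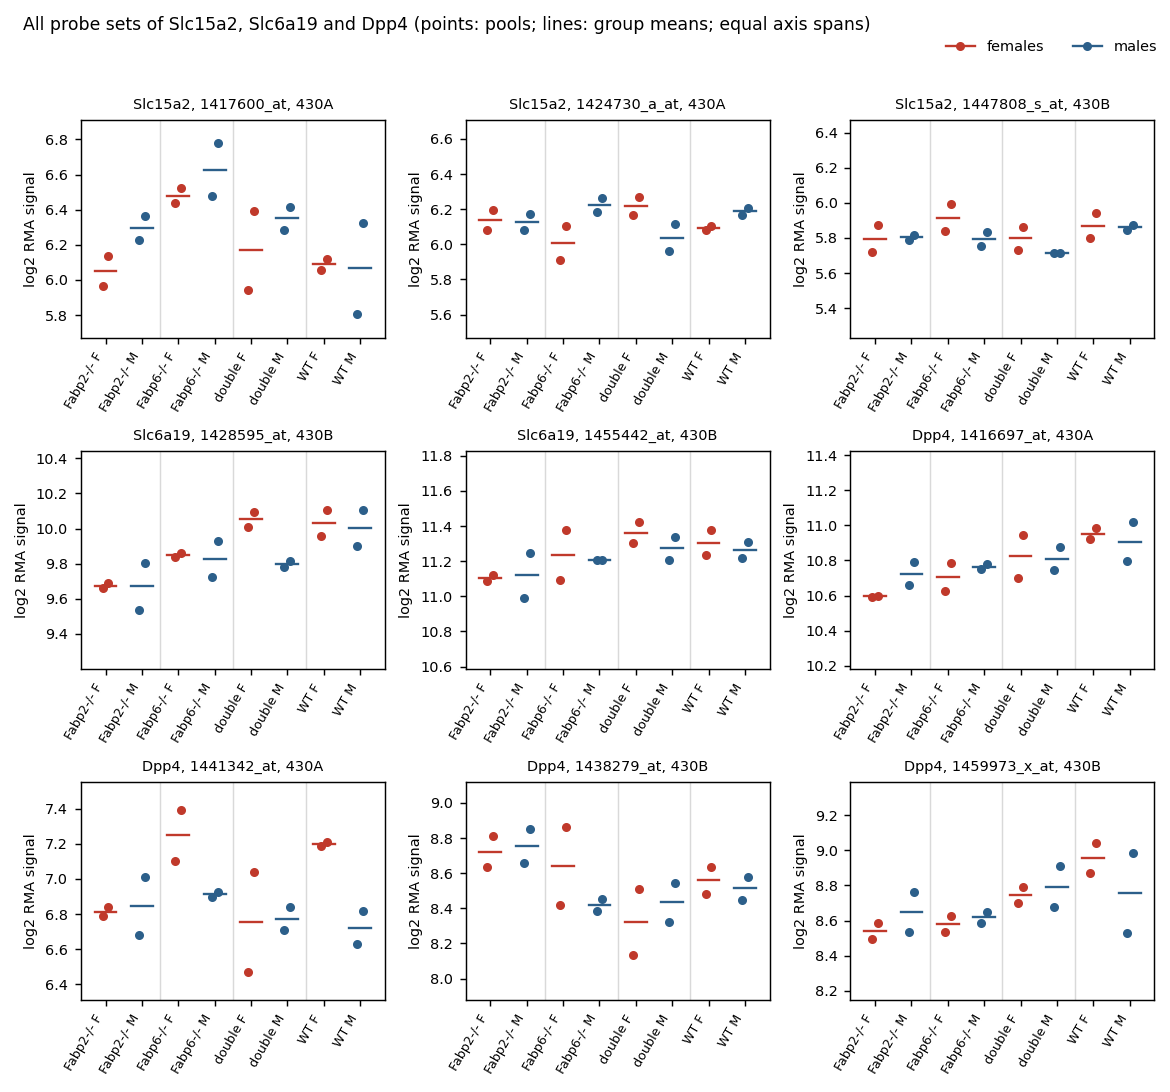
Log2 RMA signal (y axes of equal span) of every probe set of Slc15a2, Slc6a19 and Dpp4 in the 16 pools (points, females red, males blue) with group means (lines). In Fabp6-/- mice the first of the 3 Slc15a2 sets lies above WT in all 4 pools, both Slc6a19 sets have their lowest means in Fabp2-/- mice, and the 4 Dpp4 sets differ in the order of the groups.

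Averaged over the sexes, none of 27 pairs of a member and a genotype was called against WT by limma, while 0.669% of all pairs were (0.676%, 0.363% and 0.967% of genes in Fabp2-/-, Fabp6-/- and Fabp2-/-;Fabp6-/- mice). An FDR under 0.2 was reached by 6 of the 27, against 9.9% of all pairs, namely Dpp4 and Slc6a19 in Fabp2-/- (7.43% of genes), Dpp4 and Slc15a2 in Fabp6-/- (7.94%) and Mep1a and Anpep in Fabp2-/-;Fabp6-/- mice (14.3%), and 8 had an unadjusted p under 0.05, against 17%. These 3 comparisons share the WT pools.

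Sex was the second factor of the design. No member was called between females and males within a genotype (0 of 36 pairs by limma, against 0.201% of all pairs, with 6 pairs at an unadjusted p under 0.05, against 7.79%), nor in the mean over the 4 genotypes (0 of 9 members, against 0.176% of genes, with 2 at an unadjusted p under 0.05, against 12.6%). By genotype, 0.0824% of genes were called between the sexes in Fabp2-/-, 0.407% in Fabp6-/-, 0.0769% in Fabp2-/-;Fabp6-/- and 0.236% in WT mice. Mep1a came closest among the members. Females lay above males in each of the 4 genotypes on both chips, without overlap of the pools on 430A, by 0.25 in Fabp2-/-, 0.41 in Fabp6-/-, 0.11 in Fabp2-/-;Fabp6-/- and 0.32 in WT mice (SE 0.10). Averaged over the genotypes the difference was 0.27 on 430A (SE 0.05, adjusted p = 0.0132, over 8 female and 8 male pools) and 0.29 on 430B (SE 0.06, adjusted p = 0.0711), the 1 member of 9 with an FDR under 0.2, against 2.78% of genes. Without the library labelled Fabp6-/- female replicate 2 these means were 0.27 and 0.29 (adjusted p = 0.0167 and 0.108), and without both pools that did not match between the chips 0.27 and 0.28 (adjusted p = 0.0465 and 0.0349). On 430B the adjusted p was 0.212 without Fabp2-/- female replicate 2 and 0.204 without Fabp6-/- male replicate 1.

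In Fabp6-/- mice Mep1a was the 1 pair of 36 with an FDR under 0.2 (adjusted p = 0.13), against 0.272% of all pairs and 0.572% of genes in this genotype. It read 10.81 and 10.82 in females against 10.28 and 10.53 in males on 430A, and 10.06 in both female pools against 9.60 in both male pools on 430B (0.46, adjusted p = 0.394). Without the library labelled Fabp6-/- female replicate 2, the difference on 430A was 0.40 (adjusted p = 0.213), and without Fabp6-/- male replicate 1 it was 0.29 (adjusted p = 1). In the same females and males, enterocyte markers summed to 41400 to 43600 against 37600 to 38500. Those of the proximal small intestine summed to 4020 to 4050 against 2770 to 2850. Ileal markers summed to 4090 to 4120 against 3130 to 3240. Lct, listed with enterocytes and with the proximal small intestine, was the only gene of these lists called, higher in females (0.64, adjusted p = 0.0135). Of the ileal markers only Cubn was called, also higher (1.02, adjusted p = 0.0193). Median log2 fold changes were 0.09 for the enterocyte list, −0.02 for the proximal list and 0.12 for the ileal list. Markers of T cells summed to 1760 to 1830 against 2650 to 2870, with the granzymes Gzma (−0.76, adjusted p = 0.0399) and Gzmb (−0.93, adjusted p = 0.0208) called lower, and those of hepatocytes to 435 to 595 against 253 to 283, with Alb (1.46, adjusted p = 0.125) and Ttr (adjusted p = 0.0399) called higher. The part of these in the sex difference of Mep1a was not tested. The size of the Mep1a sex difference did not differ detectably between Fabp2-/-;Fabp6-/- and WT mice (−0.21, 95% interval −0.51 to 0.09, adjusted p = 0.695 on 430A).

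**Figure D4:**
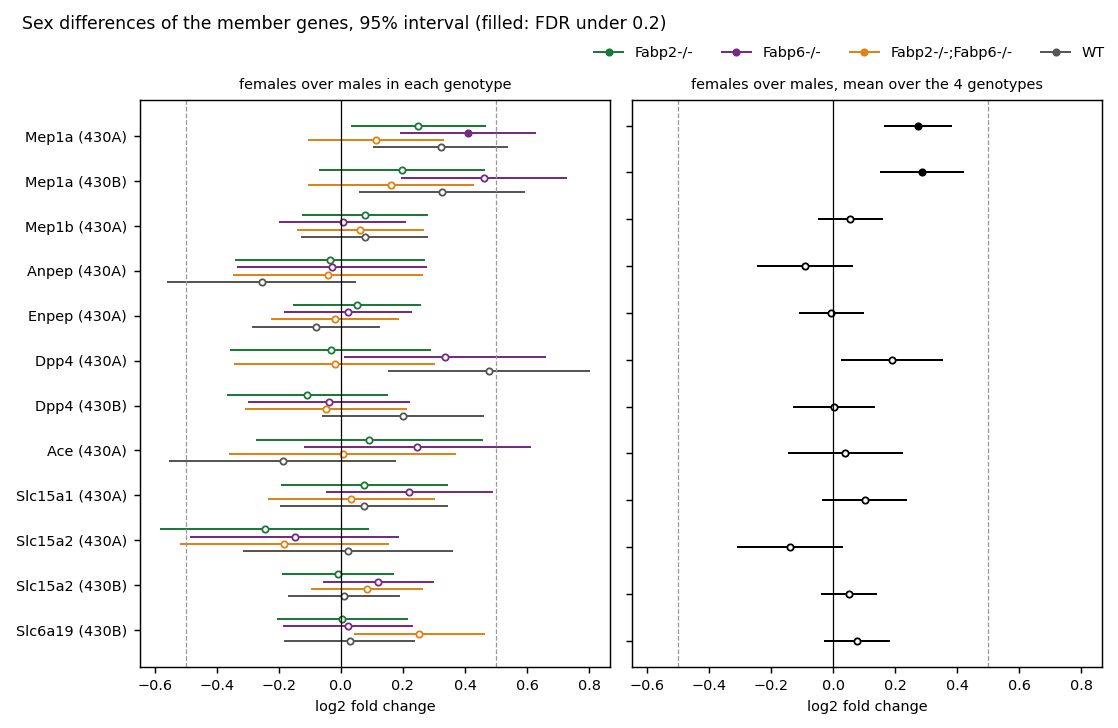
Log2 fold changes (x axis) of the member genes in females over males, with the 95% interval of limma, in each genotype (left, n = 2 pools of each sex) and averaged over the 4 genotypes (right, n = 8 pools of each sex), filled at an FDR under 0.2. Mep1a has positive values in every genotype on both chips and means of 0.27 and 0.29, while the means of the other members lie between −0.14 and 0.19.

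Of the other members, Dpp4 differed most by sex, on the kept set of 430A, which read 7.21 and 7.19 in WT females against 6.63 and 6.82 in WT males. This was 0.48 (SE 0.15, adjusted p = 0.415), against 0.34 in Fabp6-/- (SE 0.15, unadjusted p = 0.0416, adjusted p = 0.761), −0.03 in Fabp2-/- and −0.02 in Fabp2-/-;Fabp6-/- mice. The value in Fabp6-/- mice was 0.48 when the library labelled Fabp6-/- female replicate 2 was left out (adjusted p = 0.339). The sex difference in Fabp2-/- mice minus that in WT mice was −0.51 (unadjusted p = 0.0302, adjusted p = 0.939) and that in Fabp2-/-;Fabp6-/- mice minus that in WT mice −0.50 (unadjusted p = 0.0339, adjusted p = 0.535). The brightest set of Dpp4 on 430A had a sex difference of 0.05 in WT mice. None of 27 pairs of a member and an interaction of sex with genotype was called by limma, against 0.011% of all pairs (0.022% of genes for Fabp2-/-, and 0.0055% for each of the other genotypes), and these 2 of Dpp4 were the pairs with an unadjusted p under 0.05, against 6.75% of all pairs. Slc6a19 was higher in Fabp2-/-;Fabp6-/- females than males by 0.25 (adjusted p = 0.925), and Mep1b, Enpep, Anpep, Ace and Slc15a1 had mean sex differences between −0.09 and 0.10, none with an unadjusted p under 0.05.

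The other peptidases, amino acid transporters and brush border factors give the setting of the 9 members. Of 28 listed brush border and intracellular peptidases 24 were measured. Scpep1, a serine carboxypeptidase, was called lower in Fabp2-/- females (−1.12, adjusted p = 0.000692), Fabp2-/- males (−0.98, adjusted p = 0.00281), Fabp2-/-;Fabp6-/- males (−1.07, adjusted p = 0.000347) and Fabp6-/- females (−0.63, adjusted p = 0.0939), and was called higher in Fabp2-/-;Fabp6-/- females than males (0.91, adjusted p = 0.0114). Erap1, which trims peptides for MHC class I, was called lower in Fabp2-/-;Fabp6-/- females (−0.61, adjusted p = 0.0296), and no listed peptidase was called higher against WT. Without both pools that did not match between the chips the calls of Scpep1 in Fabp6-/- females (−0.50, adjusted p = 0.301) and of Erap1 (−0.34, adjusted p = 0.214) ended. In the comparison of Fabp2-/-;Fabp6-/- with Fabp2-/- pools 3 of the 24 were called higher and none lower, against 0.984% of all genes. These were Mme, the brush border endopeptidase neprilysin (0.65, adjusted p = 5.19e-05), the cytosolic dipeptidase Cndp2 (0.62, adjusted p = 6.20e-05) and carboxypeptidase M, Cpm (0.52, adjusted p = 0.00179). Mme was also called higher over Fabp6-/- pools (0.62, adjusted p = 7e-05), and was not called against WT.

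The list of other amino acid transporters had 34 genes, among them Slc9a3, which was included for its link to peptide uptake. All 34 were measured, and 3, Slc9a3 included, were called over the comparisons. Slc9a3, the sodium-proton exchanger that restores the proton gradient used by PepT1, was called higher in Fabp6-/- females (0.67, adjusted p = 0.119) and males (0.77, adjusted p = 0.0634), where 0.451% and 0.484% of all genes were called, and lower in Fabp2-/-;Fabp6-/- than in Fabp6-/- pools (−0.82, adjusted p = 0.000286). Its call in Fabp6-/- females ended without both pools that did not match between the chips (0.48, adjusted p = 0.373), while omission of the library labelled Fabp6-/- female replicate 2 gave 0.89 (adjusted p = 0.0236). Slc6a20a, the imino acid transporter, was called higher in Fabp2-/-;Fabp6-/- males (0.71, adjusted p = 0.0624), where 1.6% of all genes were called. The proton-coupled transporter Slc36a1 was called lower in Fabp2-/-;Fabp6-/- than in Fabp6-/- pools (−0.57, adjusted p = 0.0293), where 1.24% were. Of 21 listed scaffold and transcription factors 17 were measured, and Cdx2, a regulator of intestinal identity, was the 1 called, higher in Fabp2-/-;Fabp6-/- males (0.56, adjusted p = 0.0439). The medians of these lists in Fabp2-/-;Fabp6-/- males were 0.07 for the peptidases, −0.06 for the transporters and −0.000602 for the factors, beside −0.01 for all genes.

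Genes whose signals followed a member most closely over the 16 pools were named for the 3 members with the widest range of group means, as a description. For Mep1a on 430B, whose group means spanned 0.91, they were Gm5485 (Pearson r = 0.943, Spearman rho = 0.924), Cyp2j6, a cytochrome P450 (r = 0.904), Prxl2a (r = 0.875) and Svip (r = 0.869), of 9611 genes ranked on the chip. For the kept set of Slc15a2 they were Mterf2 (r = 0.86), Ttc39b (r = 0.842), Dennd2d (r = 0.829) and Mllt11 (r = 0.818), of 12393 genes. For the kept set of Dpp4 on 430A they were Slc35d1 (r = 0.82), the interferon-induced GTPase Mx1 (r = 0.776), Tnrc6c (r = 0.771) and Ints4 (r = 0.744). A correlation over 0.8 was reached by 16 genes for Mep1a, 6 for Slc15a2 and 1 for Dpp4, and all these values share the pools, their groups and the normalization of a chip.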

How the data were processed

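The authors deposited log2 signals made from scanned Affymetrix 430A and 430B arrays by background correction, quantile normalization and RMA, each chip on its own, in a version not given in the sources used here. Series matrix values were equal to these. Probe sets naming several genes or none were left out, and 12394 genes on 430A and 9612 on 430B were tested. Group means were estimated with limma (version 3.58.1, R 4.3.3), with 8 residual degrees of freedom per chip, two-sided moderated tests and Benjamini-Hochberg adjustment per chip and comparison. Genes present on 2 chips counted as 1. Pools of 2 mice were the replicates.

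All 16 arrays of a chip entered the 19 comparisons. Comparisons of Fabp2-/-;Fabp6-/- with the other disrupted genotypes, the count by FDR alone and the omission of both non-matching pools were added once values were known. The members and lists were chosen with earlier results of these data known. Named were all members, and the called genes of the lists of peptidases, transporters and brush border factors (up to 6 for a family of comparisons). Of the cell type markers only some called genes were named. The 4 genes most like each of 3 members were named too. Replicate numbers did not pair the pools (median correlation of deviations −0.02 on 430A and 0.03 on 430B, over 28 pairs of groups). Alternatives were another choice of probe sets, filters on spread and on low signal, smaller fits, joint adjustment, another prior, cyclic loess, a block for replicate numbers, the matrix values, an FDR under 0.05 and the omission of each pool. The fit was tested on simulated data.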

Additional observations from a re-analysis of the deposited data

How the results depend on the processing

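The count of calls between gene-disrupted and WT pools of the same sex, 2 in the main setting, was 1 with cyclic loess, with an FDR under 0.05, with the replicate block and without both pools that did not match between the chips, and 1 to 3 when 1 pool was left out (1 without either Fabp6-/- male pool, Fabp2-/-;Fabp6-/- male replicate 1, WT female replicate 2 or WT male replicate 1, and 3 without Fabp2-/-;Fabp6-/- female replicate 1 or WT male replicate 2). In each of these settings with 1 call it was that of Mep1a in Fabp2-/-;Fabp6-/- males. The replicate block changed no other count of calls. The count against WT averaged over the sexes, 0 in the main setting, was 1 without both pools that did not match and 0 to 2 when 1 pool was left out, with 1 without Fabp6-/- male replicate 2 or WT female replicate 2, and 2 without WT male replicate 2. Between females and males within a genotype it was 0 to 1, with 1 without Fabp6-/- male replicate 2. The counts for the mean over genotypes, the interactions and the comparison of Fabp2-/-;Fabp6-/- with the other disrupted genotypes were the same in all 28 alternatives. The difference of Dpp4 between Fabp2-/-;Fabp6-/- and Fabp6-/- pools on 430A, −0.32 (adjusted p = 0.105), reversed to 0.0816 (adjusted p = 0.625) with the probe set of highest mean signal, which is another set of the same gene. A group without 1 of its pools has a lone pool that is assumed to vary like the other groups. Of the differences of Mep1a on 430A, those of Fabp2-/-;Fabp6-/- males from WT males, of Fabp2-/-;Fabp6-/- pools from WT, Fabp2-/- and Fabp6-/- pools and of females from males over the genotypes kept an FDR under 0.2 in all 28 alternatives. That of Fabp2-/-;Fabp6-/- females from WT females did not, and lost it without any 1 of the 4 pools behind it. Omission of 1 pool at a time ended an FDR under 0.2 for Dpp4 in Fabp6-/- against WT pools (7 of 16 omissions), Slc6a19 and Slc15a1 between Fabp2-/-;Fabp6-/- and Fabp2-/- pools (5 and 4 of 16) and Anpep in Fabp2-/-;Fabp6-/- against WT pools (4 of 16). Cyclic loess ended it for Dpp4 and Slc6a19 in Fabp2-/- females (adjusted p = 0.223 and 0.259).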
